A study of Mus musculus with 20 samples.

Results

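Whole mouse embryos at E18.5, the last stage of this series and shortly before birth, were compared with whole embryos at E7.5, its earliest stage, when gastrulation is under way. The arrays were taken by their stage label: 2 of E18.5 and 3 of E7.5, that is 5 of the 20 arrays of the series. Every sample came from wild type C57BL/6 mice kept specific-pathogen free. The tissue was the entire embryo with the amnion removed, embryos were of both sexes, and the total RNA of several embryos was pooled for each array, so an array stands for a pool and not for an animal. The labels do not say whether tissue other than the amnion was removed. RNA was labelled with biotin and hybridised to the Affymetrix Mouse Genome 430 2.0 array, on which a gene is read by 1 or more probe sets. Of the 8 stages of the series, the 4 up to E10.5 have 3 arrays each and the 4 from E12.5 to E18.5 have 2 each. The values are MAS5 signals on a linear scale, and a change is given as the difference of log2(signal + 25.9), E18.5 minus E7.5, with its standard error (SE) from a fit of all 20 arrays. Adding 25.9 to each signal understates the change of genes whose signal is low at 1 of the stages. In RNA of whole embryos, fewer cells of a type and less RNA per cell cannot be told apart.

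At E7.5 the embryo consists of the epiblast, from which the primitive streak draws mesoderm and endoderm, together with extraembryonic ectoderm and a covering of visceral endoderm, an absorptive layer that feeds the embryo before the placenta works. Epiblast cells carry Pou5f1 and Sall4, transcription factors of pluripotent cells, and Lin28a, an RNA-binding protein that blocks the maturation of let-7 microRNAs. By E18.5 the organs are built and are acquiring the products needed after birth: contractile proteins in muscle, the cornified barrier of the skin, surfactant in the lung, plasma proteins in the liver, digestive enzymes in the pancreas and the heat-producing programme of brown fat.

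The 2 stages lie in different sets of arrays. An array had a median signal of 169 to 172 at E18.5, against 67.2 to 70.2 at E7.5; over the whole series this median was 156 to 178 on the 8 arrays from E12.5 on and 67.2 to 91.1 on the 12 arrays up to E10.5. Spiked poly-A control transcripts had a geometric mean of 369 to 455 at E18.5, against at most 27.2 at E7.5, while the ratio of 3′ to 5′ probe sets of Gapdh was 0.7 to 0.713 at E18.5, against 0.741 to 0.821 at E7.5. In the step from E10.5 to E12.5 stage and array set cannot be told apart. For that reason the description keeps to large changes: at least 8-fold, a log2 difference of 3 or more, at an adjusted p under 0.05, both on the deposited values and after quantile normalization, in the same direction. Across genes, Pearson's r of log2 signals was 0.989 between the E18.5 arrays and 0.977 to 0.985 among the E7.5 arrays, and 0.63 to 0.639 between arrays of the 2 stages; genes are not independent replicates.

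Of 14044 genes tested, 4463 rose at least 2-fold (31.8%) and 2159 fell (15.4%) at an adjusted p under 0.05, so that 47.2% were called either way. Every count of a gene list below stands against these shares of all genes. The balance depended on the scaling, with 3181 rises and 2912 falls after quantile normalization and 3592 rises and 3386 falls when each array was scaled to its 75th percentile. The median change of all genes moved with it: it was 0.27 on the deposited values, -0.11 with quantile normalization and -0.09 with the 75th percentile. Large changes were far from even under the strict rule: 833 genes rose (5.93% of those tested) and 93 fell (0.662%). On the deposited values alone 1195 genes rose 8-fold or more and 93 fell, and after quantile normalization alone the counts were 843 and 144. Arrays of the 2 stages did not overlap for 83.6% of all genes tested, with every E18.5 array higher for 49.4% and lower for 34.2%, so a gap between them was the usual state of a gene and is not a mark of the genes named here.

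**Figure D1:**
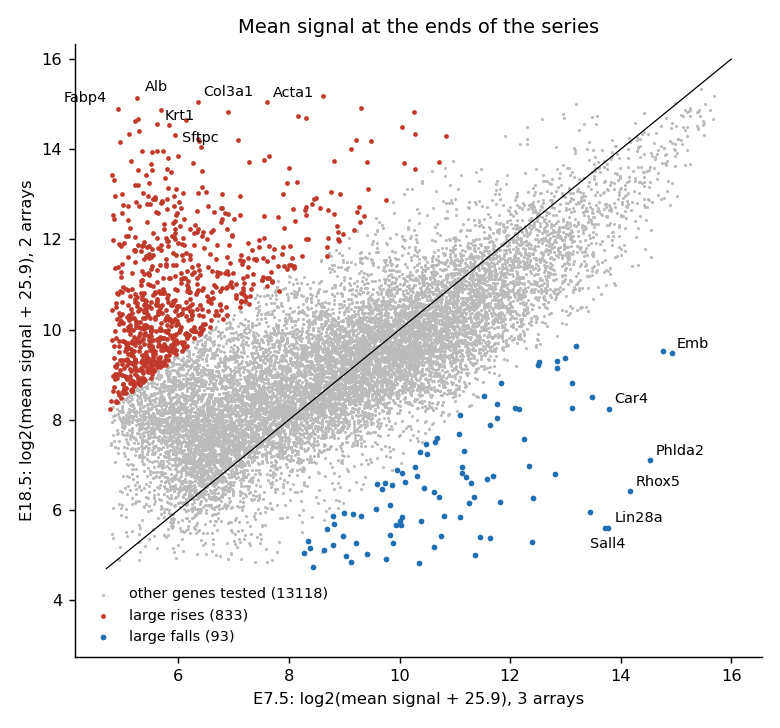
Mean signal of each of the 14044 genes tested on the 2 E18.5 arrays (vertical axis) against the 3 E7.5 arrays (horizontal axis), both as log2(mean signal + 25.9); the line marks equal signal. The 833 large rises in red begin mostly from low E7.5 signals, and the 93 large falls in blue reach low E18.5 signals from a wide range of E7.5 levels.

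The members just inside and outside the 8-fold limit had nearly the same values. Ms4a10, inside, had a change of 3.53 (3.00 after quantile normalization) and Fbn2, outside, 3.36 (2.999). Among falls Pcgf5 was inside at -3.00 and an uncharacterised gene, 3830417A13Rik, outside at -2.99. Testing asked for a signal above the median of all probe sets on 2 or more arrays: 70 of the large rises met it on the E18.5 arrays alone and 18 of the large falls on the E7.5 arrays alone. Flg and Bpifa2, named below, were among the rises that met it on the E18.5 arrays alone. Genes with several probe sets gave the same sign on all of them for 304 of 342 large rises and 42 of 48 large falls. Probe sets of the same sign could still differ widely in size.

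The change between the ends was split into 3 steps that add up to it. For the large rises the medians were 0.81 from E7.5 to E10.5, 0.76 from E10.5 to E12.5 across the array sets, and 2.81 from E12.5 to E18.5, out of a median change of 4.48. For the large falls the same medians were -3.37, -0.31 and -0.37, out of -3.93. The step after E12.5 was the largest of the 3 for 526 of 833 rises, and the step up to E10.5 for 81 of 93 falls. Over all genes tested the 3 medians were 0.11, 0.12 and -0.09.

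**Figure D2:**
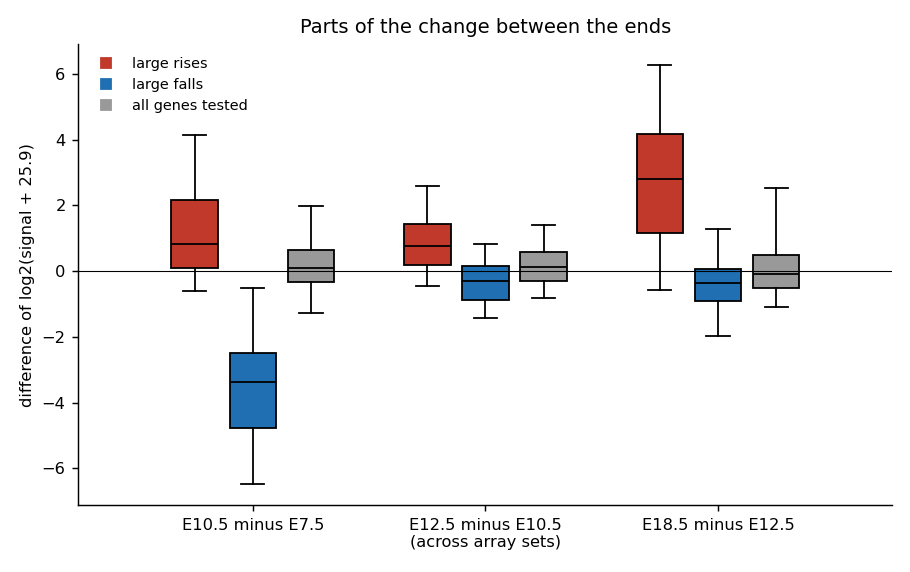
The change from E7.5 to E18.5 split into the part up to E10.5, the part from E10.5 to E12.5 across the array sets and the part after E12.5, as differences of log2(signal + 25.9) for 833 large rises, 93 large falls and all 14044 genes tested. Boxes span the interquartile range with the median as a line, and whiskers reach the 5th and 95th percentiles; rises lie mostly in the last part (median 2.81) and falls in the earliest (median -3.37).

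Leaving out the step across the array sets checks how far the large changes rest on it. The sum of the other steps was still called at 2-fold in the same direction for 821 of 833 large rises (98.6%) and for 93 of 93 large falls (100%), against 22.5% and 9.88% of all genes tested that rose and fell by it; this sum shares both end stages with the change itself and is not separate evidence. The 12 rises that lost their call were Aadac, Acan, Col8a1, Col9a3, Egfl6, Gria2, Hbb-b2, Kcne4, Mid1, Neurod6, Rgcc and Slc27a2. Mid1, for example, had a step of 4.73 from E10.5 to E12.5 within a total of 4.45, and for Neurod6 the step was 4.49 of 4.31.

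Muscle genes were among those that rose most. Of 26 tested genes of the skeletal contractile apparatus all 26 rose, 24 of them 8-fold or more, with a median change of 6.62 against 0.27 over all genes. Myh8, the perinatal fast myosin heavy chain, had signals of 27070.3 and 23212 on the E18.5 arrays, against 14.0, 4.04 and 15.9 on the E7.5 arrays. Both E18.5 values lay far above the E7.5 values, which were near the lower end of the scale; the change was 9.41 ± 0.24 (adjusted p = 3.3e-17). Tnnc2, the calcium-binding subunit of fast troponin, had signals of 26989 and 24867 on the E18.5 arrays, against 10.7, 18.7 and 8.13 on the E7.5 arrays, a change of 9.41 ± 0.22 (adjusted p = 5.8e-18). The stages were as clearly apart for Myl1, a fast myosin light chain, at 30039 and 29859 at E18.5, against 14.503, 58.0 and 4.37 at E7.5, and for Tnni2, the inhibitory subunit of fast troponin; Tnni2 had 22008 and 21141 at E18.5, against 7.496, 2.45 and 30.1 at E7.5. Changes of Myl1 and Tnni2 were 9.32 ± 0.30 and 9.17 ± 0.37. Ttn, the giant spring of the sarcomere, rose by 8.64. Atp1b4, a nuclear envelope protein of perinatal muscle, had 11275 and 10640.5 at E18.5, against 1.09, 3.67 and 1.30 at E7.5 (change 8.62 ± 0.25).

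Genes that supply muscle with calcium and energy followed. In that group 22 of 24 rose, with a median of 5.05, and Fabp3, a fatty acid carrier of heart and muscle, had a change of -1.01 that was -0.69 and under 2-fold after quantile normalization. Ckm, muscle creatine kinase, had signals of 24195 and 23361 on the E18.5 arrays, against 37.1, 42.9 and 13.4 on the E7.5 arrays, with a change of 8.75 ± 0.42 (adjusted p = 2.2e-13); its mean signal was still 54.2 at E12.5 and had reached 1373 at E14.5. The other probe set of Ckm had a change of 2.14. Sln, a small regulator of the sarcoplasmic calcium pump, rose by 8.63, the mitochondrial creatine kinase Ckmt2 by 6.62 and Cox8b, a cytochrome c oxidase subunit of muscle and brown fat, by 7.77. Atp2a2, the calcium pump of slow and cardiac muscle, gave a change of -1.51 by its brightest probe set but of 0.62 as the mean of its 6 probe sets, so no direction is given for it. Of 19 cardiac muscle genes 13 rose and 2 fell (Gata4 and Hand1), against 11 and 4 after quantile normalization. Cardiac genes had risen early: Actc1, cardiac actin, had 26982 and 26212 at E18.5, against 294, 323 and 259 at E7.5, a change of 6.39 ± 0.13, of which 5.28 lay before E10.5, and its mean signal was already 18902 at E8.5. Myh7, Myl2 and Myl4, a heavy and 2 light chains of cardiac myosin, rose by 5.69, 5.51 and 5.48, with 4.79, 5.39 and 4.42 of it before E10.5. Hand1, a transcription factor of early heart and trophoblast, was the cardiac gene with a large fall, -3.18 ± 0.27. Smooth muscle genes rose in 10 of 11 cases, with Actg2, the actin of visceral smooth muscle, at 4061 and 4159 at E18.5, against 42.8, 29.7 and 34.1 at E7.5 (change 6.08), and Synpo2, Mylk and Myh11 at changes of 4.81, 4.99 and 4.44. The other probe set of Myh11 had a change of 0.52.

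Connective tissue made up another large block. Of 35 tested matrix genes 34 rose, 31 of them by 8-fold or more, with a median of 6.33. Col3a1, the fibrillar collagen of loose connective tissue, had signals of 35314 and 32839.9 on the E18.5 arrays, against 38.4, 67.8 and 62.2 on the E7.5 arrays, a change of 8.72 ± 0.17 (adjusted p = 4.9e-19). Most of this preceded E10.5, where the part was 7.53. Postn, a matricellular protein of connective tissue and periosteum, had 26373 and 25324 at E18.5, against 58.8, 42.6 and 32.1 at E7.5 (change 8.54 ± 0.14), and Lum, a keratan sulphate proteoglycan of stroma, 16041 and 15857 at E18.5, against 14.4, 45.7 and 20.4 at E7.5 (change 8.29 ± 0.18). Aspn, a small leucine-rich proteoglycan, rose by 7.78, with 4.36 after E12.5. Dcn, decorin, rose by 7.73.

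Skeletal tissue rose as well. In the bone group 14 of 16 genes rose, with a median of 3.84, and in the cartilage group 21 of 22 rose and 1 fell, with a median of 3.67. Col1a1 and Col1a2, the chains of type I collagen that make up most of bone matrix, rose by 7.15 ± 0.19 and 6.56 ± 0.12. Mmp13, the collagenase of hypertrophic cartilage, had signals of 4183 and 4417 on the E18.5 arrays, against 9.53, 12.3 and 2.13 on the E7.5 arrays, with a mean of 7.90 at E12.5; its change was 7.01 ± 0.31, and 7.01 of it came after E12.5. Ctsk, the protease of osteoclasts, rose by 6.51. Col10a1, the collagen of hypertrophic chondrocytes, had 1339.9 and 1263 at E18.5, against 6.09, 4.51 and 2.62 at E7.5 (change 5.46 ± 0.34). Col2a1, the main collagen of cartilage, rose by 6.45 ± 0.34, or by 5.81 without the E7.5 array of lowest signal, which was replicate 1. Col11a1 and Epyc, also of cartilage matrix, rose by 6.14 and 5.52. Ihh, a hedgehog ligand of cartilage and gut that is also made by visceral endoderm, was the cartilage gene that fell, with a change of -1.01 (adjusted p = 0.0097); the change was -0.96 without E18.5 replicate 1 (adjusted p = 0.06) and -0.92 without E7.5 replicate 2, both no longer called.

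**Figure D3:**
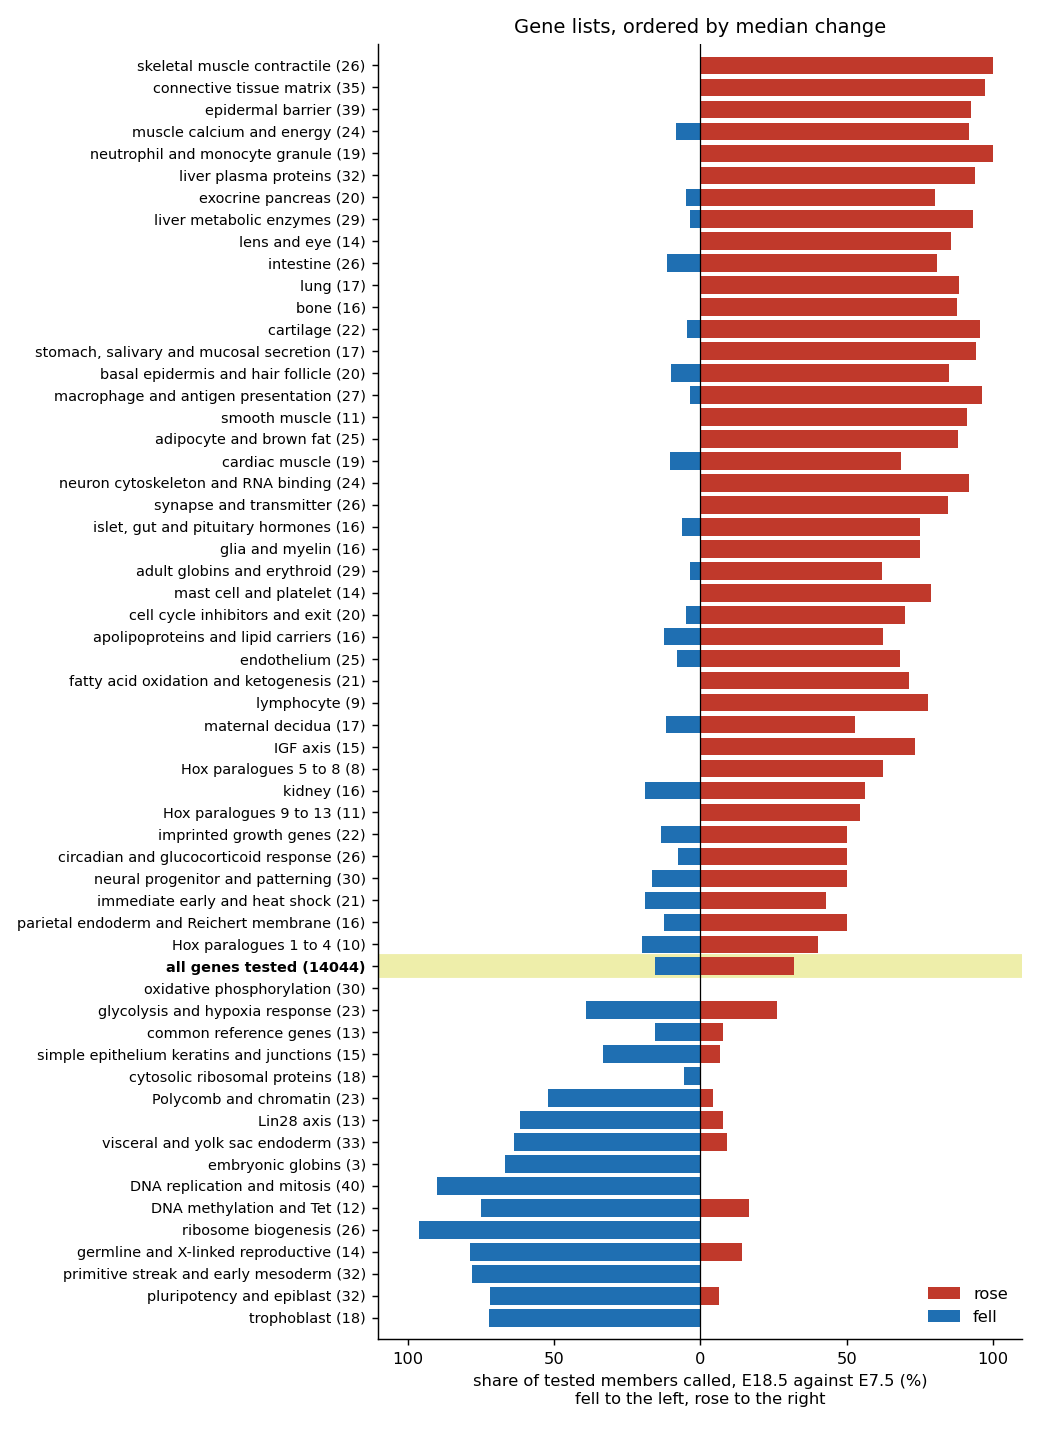
Share of the tested members of each gene list that rose (red, to the right) or fell (blue, to the left) at E18.5 against E7.5, in percent, with the number tested in brackets and the lists in order of median change. All genes tested, at 31.8% rose and 15.4% fell, are marked by the yellow band; contractile, matrix and skin barrier lists lie at the top and trophoblast, pluripotency and primitive streak lists at the bottom.

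The outer skin barrier is laid down in the last days before birth by keratinocytes that fill with keratins, filaggrin-like proteins and cornified envelope proteins. Of 39 tested barrier genes 36 rose, 31 of them by 8-fold or more, with a median of 5.24, and the largest of the 3 steps came after E12.5 for 37 of the 39. Krt1, the keratin of the suprabasal layers, had signals of 25426 and 23122 on the E18.5 arrays, against 11.3, 28.5 and 29.4 on the E7.5 arrays, a change of 8.98 ± 0.32 (adjusted p = 3.2e-15). Flg, profilaggrin, had signals of 9434 and 9513 on the E18.5 arrays, against 2.27, 4.73 and 26.9 on the E7.5 arrays. Its stage mean was 6.47 at E14.5 and 103 at E16.5, so the E18.5 arrays stood apart from every earlier stage; the change was 8.06 ± 0.32. Hrnr, hornerin, a relative of filaggrin, had signals of 9973 and 10394 on the E18.5 arrays, against 1.29, 5.31 and 0.976 on the E7.5 arrays (change 8.49 ± 0.25), and its mean at E16.5, 11173, was above both E18.5 values. Krtdap, a secreted protein of differentiating keratinocytes, had 11324 and 10634 at E18.5, against 2.19, 26.6 and 22.0 at E7.5 (change 8.06 ± 0.30). The promoters of Hrnr and Krtdap are printed because both genes were near the bottom of the scale up to E12.5 and carry a TATA box, the sequence on which the transcription machinery assembles shortly before the start. They run from 200 bases before to 20 bases after the annotated start on GRCm38.p6, as RefSeq gives it, 5′ to 3′ on the strand of the gene, with the TATAAA in capitals: chr3:93319549-93319768 on the plus strand for Hrnr and chr7:30787705-30787924 on the plus strand for Krtdap.
Hrnr: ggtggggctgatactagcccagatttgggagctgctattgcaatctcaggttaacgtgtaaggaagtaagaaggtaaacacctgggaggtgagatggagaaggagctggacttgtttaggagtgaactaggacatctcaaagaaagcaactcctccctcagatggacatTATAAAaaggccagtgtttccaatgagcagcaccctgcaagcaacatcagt
Krtdap: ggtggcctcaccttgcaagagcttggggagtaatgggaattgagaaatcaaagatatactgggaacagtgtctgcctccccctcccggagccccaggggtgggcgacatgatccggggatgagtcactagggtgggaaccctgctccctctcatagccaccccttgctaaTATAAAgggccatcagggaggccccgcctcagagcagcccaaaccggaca

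Barrier genes lay next to each other in the genome. On chromosome 3, 9 neighbouring tested genes were all large rises (Lce1a1, Lce1b, Lce1a2, Lce1c, Lce1d, Lce1f, Lce1h, Lce1i and Kprp), as were 7 more from Lce3c to Rptn that include Flg and Hrnr, and 4 from Sprr1b to Ivl. Late cornified envelope and Sprr genes are close relatives, and their probe sets may share signal. Basal epidermis and hair follicle genes rose in 17 of 20 cases and fell in 2 (Lef1 and Msx2). Krt15 and Krt5, keratins of the basal layer, rose by 6.32 ± 0.29 and 5.66 ± 0.17, Dsc3, a desmosomal cadherin, by 5.15, and Krt25, of the inner root sheath of the hair, by 4.99 with a mean of 157 at E16.5. Msx2, a homeobox factor of limb bud and follicle, had 178 and 158 at E18.5, against 1279, 1208 and 1254 at E7.5 and fell by 2.72. The other probe set of Msx2 had a change of -0.67. Stfa3, a cystatin-type protease inhibitor, had signals of 20063 and 21346 on the E18.5 arrays, against 2.57, 5.85 and 17.7 on the E7.5 arrays, a change of 9.25 ± 0.29; its neighbours Csta1 and Stfa2l1 were large rises too, and these close relatives may share signal between probe sets.

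Liver products rose together. Of 32 tested plasma proteins 30 rose, 23 by 8-fold or more, with a median of 4.54, and of 29 liver metabolic enzymes 27 rose and 1 fell, with a median of 4.22. Alb, albumin, had signals of 38134 and 33726 on the E18.5 arrays, against 2.03, 24.7 and 10.3 on the E7.5 arrays, a change of 9.92 ± 0.33 (adjusted p = 9.6e-16). Its means were 620.2 at E10.5, 12835 at E12.5 and 32409 at E16.5, with parts of 4.11 before E10.5 and 1.48 after E12.5. Ahsg, fetuin-A, had signals of 17356 and 19081 on the E18.5 arrays, against 5.02, 6.41 and 3.11 on the E7.5 arrays, a change of 9.21 ± 0.24 with 5.76 after E12.5. Apoh and Kng1, a phospholipid-binding plasma protein and kininogen, rose by 8.40 ± 0.32 and 8.06 ± 0.32. The other probe set of Apoh had a change of 1.16. Ahsg, Fetub, Hrg and Kng1 are neighbours on chromosome 16 and all 4 were large rises, as were the neighbours Fgg, Fga and Fgb on chromosome 3, which encode the chains of fibrinogen. Among the enzymes, Cps1, the entry step of the urea cycle, had 7126 and 8105 at E18.5, against 22.8, 18.1 and 24.3 at E7.5 (change 7.33 ± 0.31), and its mean was 253 at E14.5. Fbp1, the gluconeogenic fructose bisphosphatase, had 7670.1 and 9360.3 at E18.5, against 75.2, 70.2 and 47.0 at E7.5 (change 6.58 ± 0.35). Adh1 and Bhmt, an alcohol dehydrogenase and a methyltransferase of homocysteine, rose by 6.71 and 5.92. Tdo2, which degrades tryptophan in liver and is also made by decidua, fell by 3.23, with 34.4 and 34.4 at E18.5, against 611, 486 and 529 at E7.5.

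Fat genes rose late. Of 25 genes of adipocytes and brown fat 22 rose, with a median of 2.98, and for 21 of the 25 the step after E12.5 was the largest. Fabp4, the fatty acid carrier of adipocytes, had signals of 31489.6 and 29205 on the E18.5 arrays, against 5.68, 4.44 and 2.21 on the E7.5 arrays, a change of 9.99 ± 0.29 (adjusted p = 1.4e-16). The lowest of the 4 probe sets of Fabp4 had a change of 3.41. Ucp1, the uncoupling protein that lets brown fat make heat, had signals of 9667 and 9821 on the E18.5 arrays, against 14.9, 29.4 and 10.2 on the E7.5 arrays, and its mean was 27.7 at E16.5, so the E18.5 arrays alone were high; its change was 7.82 ± 0.45. Cidea, a lipid droplet protein of brown fat, rose by 7.15 ± 0.39, and Adipoq, adiponectin, by 7.32 ± 0.33. Ppara, a nuclear receptor that switches on fatty acid oxidation, rose by 4.50; in its group 15 of 21 genes rose.

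Digestive and airway secretions had changes of similar size. In the exocrine pancreas group 16 of 20 genes rose and 1 fell (Spink1), with a median of 4.51; after quantile normalization 14 rose and 3 fell. Ctrb1, chymotrypsinogen, had signals of 10644 and 8079 on the E18.5 arrays, against 9.34, 20.5 and 8.24 on the E7.5 arrays, a change of 7.93 ± 0.37, with a mean of 143 at E14.5. Pnliprp1, Cela2a and Cpa1, a lipase-related protein, an elastase and a carboxypeptidase, rose by 8.04, 7.20 and 6.29. Of 17 stomach, salivary and mucosal genes 16 rose, or 13 after quantile normalization, and for all 17 the step after E12.5 was the largest. Cym, chymosin, the milk-clotting protease of the newborn stomach, had signals of 12119.7 and 14534 on the E18.5 arrays, against 56.6, 48.0 and 48.4 on the E7.5 arrays (change 7.44 ± 0.27). Bpifa2 and Smgc, secreted by salivary glands, had means of 77.4 and 129 at E16.5 and rose by 7.37 ± 0.36 and 7.16 ± 0.32. Intestinal genes rose in 21 of 26 cases and fell in 3 (Cdx1, Cdx2 and Vil1), with Tff3, Lgals4 and Lct, a goblet cell peptide, a galectin and lactase, at 5.90, 5.72 and 5.16. Lung genes rose in 15 of 17 cases. Sftpc, the surfactant protein made by alveolar type 2 cells, had signals of 20091 and 20733 on the E18.5 arrays, against 19.8, 68.1 and 17.0 on the E7.5 arrays, a change of 8.49 ± 0.39 (adjusted p = 1.0e-13). Scgb3a2 and Scgb1a1, secretoglobins of airway club cells, rose by 7.69 ± 0.30 and 6.08 ± 0.37; the mean of Scgb1a1 was 20.1 at E16.5. The promoter of Cym, printed because its gene, like Hrnr, rose late and holds a TATA box (in capitals), lies at chr3:107221713-107221932 on the minus strand.
Cym: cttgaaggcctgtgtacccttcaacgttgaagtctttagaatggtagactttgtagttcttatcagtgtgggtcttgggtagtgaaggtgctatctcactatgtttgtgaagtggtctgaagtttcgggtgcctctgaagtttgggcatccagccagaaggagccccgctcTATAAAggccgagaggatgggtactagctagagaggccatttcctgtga

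Genes of blood and immune cells rose as well. All 19 tested neutrophil and monocyte granule genes rose, 11 of them by 8-fold or more, with a median of 4.88. S100a9, a calcium-binding protein of neutrophils, had signals of 11177 and 12535 on the E18.5 arrays, against 26.3, 4.18 and 7.70 on the E7.5 arrays, a change of 8.31 ± 0.30 (adjusted p = 3.4e-15), and Ngp, of neutrophil granules, had 5253 and 5908 at E18.5, against 18.9, 62.3 and 46.8 at E7.5 (change 6.41 ± 0.42). Lyz2 and Ltf, lysozyme and lactoferrin, rose by 6.41 and 5.89, and Lcn2, which binds bacterial iron carriers, by 5.47. Macrophage and antigen presentation genes rose in 26 of 27 cases, with C1qa and C1qc, parts of complement C1q, at 5.64 ± 0.20 and 5.24 ± 0.22. Csf1r, the receptor on which macrophages depend, rose by 5.17 ± 0.22 and the lysosomal protease Ctss by 5.91. The exception, Lgmn, a lysosomal protease also made by visceral endoderm, fell by 1.68. In the mast cell and platelet group 11 of 14 rose, and 7 after quantile normalization. Cpa3, a mast cell carboxypeptidase, had signals of 6720.3 and 7247 on the E18.5 arrays, against 8.07, 13.5 and 30.5 on the E7.5 arrays (change 7.37 ± 0.37), Cma1 and Mcpt4, chymases of mast cells, rose by 6.42 and 5.44, and Pf4, of platelets, by 5.45 with 4.28 before E10.5. Of 9 tested lymphocyte genes 7 rose, and 4 after quantile normalization: Rag1, which recombines antigen receptor genes, by 4.04 with a mean of 183 at E16.5, and Ebf1, a B cell factor also active in stroma and neurons, by 3.62, with 4 of its 5 probe sets higher. Cpa3 already had a mean of 143 at E12.5. Its promoter, shown because it also holds a TATA box (TATAAA in capitals), is chr3:20242162-20242381 on the minus strand.
Cpa3: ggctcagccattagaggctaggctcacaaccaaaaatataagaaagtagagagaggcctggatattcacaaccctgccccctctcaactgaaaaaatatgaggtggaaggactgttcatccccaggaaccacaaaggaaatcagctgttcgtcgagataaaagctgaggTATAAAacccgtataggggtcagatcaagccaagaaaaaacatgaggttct

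Red cell genes differed by stage of life. Hbb-bh1, an embryonic beta-type globin, had signals of 64.7 and 7.77 on the E18.5 arrays, against 9726, 14070.2 and 9764 on the E7.5 arrays, and its change was -7.64 ± 0.26 (adjusted p = 1.7e-15). Its stage means between the ends were 31031 at E8.5, 52423 at E9.5, 17732 at E12.5 and 505 at E16.5. Globin probe sets can cross-hybridise between family members, and this change was -8.36 without E18.5 replicate 1 and -6.93 without E18.5 replicate 2. Hba-x, an embryonic alpha-type globin, fell as well, and Hbb-y, the remaining member of that list of 3, was not called. Hbb-b2, an adult beta globin, had 1002 and 691 at E18.5, against 2.13, 2.31 and 1.56 at E7.5, but its change of 4.95 became 0.68 (adjusted p = 0.13) when probe sets marked as possibly cross-hybridising were left out. Of 29 genes of adult globins and red cell development 18 rose and 1 fell: Alas2, the erythroid enzyme of haem synthesis, by 4.94 ± 0.23, Hemgn, a nuclear protein of red cell precursors, by 5.46 and Rhag, a membrane protein, by 4.10. After quantile normalization 17 rose and 3 fell. Alas2, Hemgn and Rhag had their highest means at E14.5 or E16.5. The gene that fell was Gata1, the erythroid master regulator, with 282 and 253 at E18.5, against 722, 391 and 625 at E7.5; its change of -1.002 was -0.93 without E18.5 replicate 2, -0.83 without E7.5 replicate 1 and -0.93 without E7.5 replicate 3, under 2-fold each time.

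Nervous system genes took most of their rise before E12.5. Neuron cytoskeleton and RNA-binding genes rose in 22 of 24 cases (median 2.53), with median parts of 2.49 before E10.5 and -0.74 after E12.5. Synapse genes rose in 22 of 26 cases (median 2.45), and for 17 of the 26 the largest step was the one across the array sets, where array set and stage cannot be told apart. Dcx, doublecortin, a microtubule protein of migrating neurons, had signals of 2796 and 2256 on the E18.5 arrays, against 11.3, 8.28 and 49.0 on the E7.5 arrays, a change of 5.80 ± 0.24; the part before E10.5 was 6.07 and the part after E12.5 was -1.10. The lowest of the 4 probe sets of Dcx had a change of 0.97. Stmn4, Dpysl3 and Mapt, regulators of the neuronal cytoskeleton, rose by 4.97, 4.53 and 4.48. Snap25, which drives synaptic vesicle fusion, had 1227 and 924 at E18.5, against 9.31, 16.4 and 21.8 at E7.5 (change 4.72 ± 0.39), and Slc17a6 and Gad1, markers of glutamate and GABA neurons, rose by 4.39 and 4.36. Neural progenitor genes were split, with 15 of 30 rising and 5 falling (Gbx2, Irx3, Otx2, Sox2 and Sox3). The share that fell, 16.7%, was near the 15.4% of all genes tested. Zic1, a factor of dorsal neural tube, had 1626 and 1516 at E18.5, against 16.4, 31.3 and 2.88 at E7.5 (change 5.28 ± 0.18), with 7.10 before E10.5 and -2.05 after E12.5. Gbx2, which places the boundary between midbrain and hindbrain and is also active in the late epiblast, fell by 3.64. Glial genes rose in 12 of 16 cases, among them Fabp7, of radial glia, by 3.44, Apod, a lipocalin of glia, by 4.16, Dct, of pigment cells, by 4.10, and Ednrb, of neural crest and astrocytes, by 4.07. Lens genes rose in 12 of 14 cases, with the crystallins Cryba1, Cryga and Cryaa at 5.22, 5.02 and 4.54 and Cryab, also of muscle, at 4.42, though 1 of its 3 probe sets had the opposite sign. In the hormone group 12 of 16 genes rose, Chgb, of secretory granules, by 3.66 and Iapp, of islet beta cells, by 3.48, and Pitx1, a pituitary factor, had changes of opposite sign in its 2 probe sets (-1.22 and 0.34). Several of these counts were lower after quantile normalization. Then 17 of 26 synapse genes and 8 of 16 glial genes rose. Of 30 neural progenitor genes 10 rose and 5 fell, and of 16 hormone genes 9 rose and 1 fell.

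Vessel, kidney, growth factor and stress genes gave smaller or mixed changes. Over all genes tested 31.8% rose and 15.4% fell. The shares that fell in the kidney (18.8%), immediate early and heat shock (19%) and imprinted (13.6%) lists were near the latter. They are not a result about these lists. Endothelial genes rose in 17 of 25 cases and fell in 2 (Etv2 and Sox17), with a median of 1.64; Lyve1, of lymphatic endothelium, rose by 5.01 ± 0.23, Emcn, Icam2 and Cldn5, of vessel endothelium, by 4.43, 3.71 and 3.69, and Etv2, the factor that specifies the earliest endothelial and blood precursors, had 61.6 and 81.4 at E18.5, against 1048, 712 and 734 at E7.5 and fell by 3.12. Kidney genes rose in 9 of 16 cases and fell in 3 (Cubn, Lrp2 and Podxl), with Aqp1, a water channel, at 6.00 ± 0.23 and Podxl, the sialomucin of podocytes that also coats the epiblast, at -3.70 ± 0.12. After quantile normalization 13 endothelial genes rose and 3 fell, and 6 kidney genes rose and 4 fell. In the IGF axis 11 of 15 rose: Igf1, the growth factor of fetal and postnatal life, had 4674 and 4451 at E18.5, against 38.0, 38.8 and 87.4 at E7.5 (change 5.88 ± 0.21), and Igfbp3, which carries it, rose by 3.37. Glucocorticoid and circadian genes rose in 13 of 26 cases and fell in 2 (Mt2 and Sgk1), against 9 and 0 after quantile normalization, where Mt2 was at -0.94 and Sgk1 at -0.92, with Hsd11b1, which activates glucocorticoids, at 5.01 ± 0.36, Bhlhe40 at 4.10 and Pdk4 at 3.81. Of 21 genes of the immediate early and heat shock responses 9 rose and 4 fell (Dnajb1, Hsp90aa1, Hspa8 and Hsph1), against 7 and 2 after quantile normalization, where Dnajb1, Hsp90aa1 and Hspa8 were under 2-fold, with Egr1 at 2.94 ± 0.23 and Hsph1, a heat shock chaperone, at -2.77 ± 0.10. Imprinted growth genes rose in 11 of 22 cases and fell in 3 (Ascl2, Peg10 and Phlda2). Cell cycle inhibitors rose in 14 of 20 cases and fell in 1 (Cdkn2a, with a change of -1.39 that was -1.16 at an adjusted p of 0.089 without E18.5 replicate 2), with Rb1, the retinoblastoma protein, at 3.45 ± 0.21, though its 2 probe sets had opposite signs.

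Genes of the epiblast were among those with the largest falls. Of 32 tested pluripotency and epiblast genes 23 fell, 12 of them by 8-fold or more, and 2 rose, with a median of -2.41. Lin28a had signals of 3.72 and 41.7 on the E18.5 arrays, against 13578, 13347 and 14872 on the E7.5 arrays, a change of -8.28 ± 0.23 (adjusted p = 7.3e-17), the largest fall among all genes tested. The E7.5 arrays lay close together, while the 2 E18.5 values differed among themselves, so the change was -8.88 without E18.5 replicate 2 and -7.69 without E18.5 replicate 1. Its mean was still 14347 at E8.5 and 5852 at E9.5. Sall4 had signals of 32.1 and 12.8 on the E18.5 arrays, against 15635, 11774 and 12833 on the E7.5 arrays, a change of -8.14 ± 0.26 (adjusted p = 4.6e-16), and Pou5f1, which encodes Oct4, had signals of 29.8 and 3.16 on the E18.5 arrays, against 3692, 2483 and 2119.6 on the E7.5 arrays, a change of -6.08 ± 0.42. Pou5f1 was lost sooner, with a mean of 179 at E8.5, against 8009 for Sall4 at the same stage. Dnmt3b, the de novo DNA methyltransferase of the epiblast, had 355 and 317 at E18.5, against 10326, 12036 and 11815 at E7.5 (change -4.98 ± 0.19). The 2 that rose were Klf4, also a factor of differentiating skin and gut, with 3398 and 3172 at E18.5, against 274, 470.2 and 447 at E7.5 (change 3.00 ± 0.20), and Lefty1, a Nodal antagonist, whose change of 1.69 was 0.74 after quantile normalization.

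Other genes of the Lin28 axis fell as well. Trim71, a let-7 target and stem cell ubiquitin ligase, had 7.80 and 26.3 at E18.5, against 1814, 1658 and 1627 at E7.5 (change -5.36 ± 0.21), and Hmga2, a chromatin protein and let-7 target, had 418 and 426 at E18.5, against 12686, 6913 and 7082 at E7.5 (change -4.26 ± 0.20), with an intermediate peak of 17359.5 at E9.5 and 1 of 4 probe sets of the opposite sign. Igf2bp1, an RNA-binding let-7 target, fell by 3.93. In this group 8 of 13 genes fell and 1 rose, Plagl1, an imprinted zinc finger gene. Dusp9, an X-linked phosphatase that restrains ERK signalling in pluripotent cells, had 60.2 and 32.7 at E18.5, against 2872, 4091 and 3831 at E7.5 (change -5.66 ± 0.17).

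**Figure D4:**
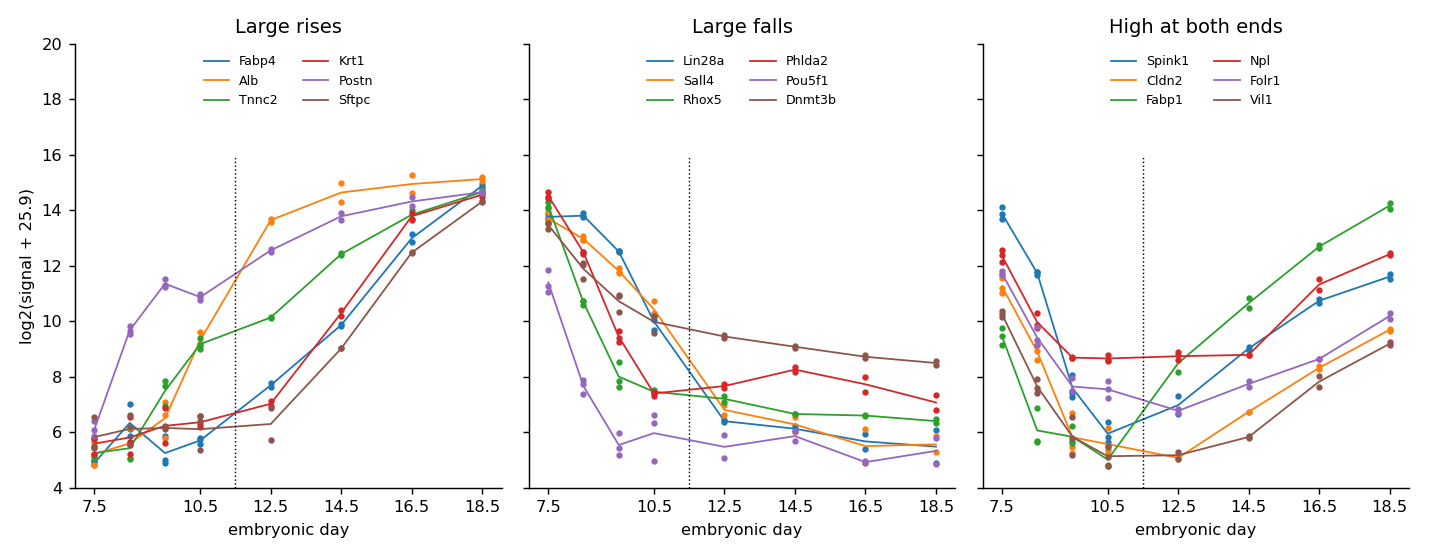
Signal of 6 large rises, 6 large falls and 6 genes high at both ends by embryonic day, as log2(signal + 25.9); points are arrays, lines join the stage means, and the dotted line marks the border between the array sets. Fabp4, Krt1 and Sftpc climb after E12.5 and Postn from E8.5 on, Pou5f1 has a mean of 22.0 by E9.5 while Lin28a still has 1006 at E10.5, and Spink1, Cldn2 and Vil1 dip to their lowest means at E10.5 or E12.5.

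Genes of the primitive streak and early mesoderm fell in 25 of 32 cases with a median of -2.41. Nkx1-2, a homeobox gene of the streak and of the axial progenitors of the tail bud, had signals of 13.8 and 16.9 on the E18.5 arrays, against 3261, 2809 and 3369 on the E7.5 arrays, a change of -6.26 ± 0.22 (adjusted p = 1.8e-15). Fgf3, a secreted growth factor, had 26.0 and 29.5 at E18.5, against 952, 979 and 1098 at E7.5 (change -4.27 ± 0.32), Cyp26a1, which degrades retinoic acid, had 121 and 53.7 at E18.5, against 2111, 2060.1 and 2485 at E7.5 (change -4.37 ± 0.29), and Cer1, a secreted antagonist of Nodal, BMP and Wnt made by anterior visceral endoderm, had 5.54 and 7.14 at E18.5, against 775, 557 and 631 at E7.5 (change -4.39 ± 0.39). Hox genes, which pattern the body axis, were counted in 3 groups of paralogues. Hoxb1, an early hindbrain gene, had 25.2 and 24.4 at E18.5, against 1143, 888 and 1036 at E7.5 (change -4.36 ± 0.18); of 10 tested genes of paralogues 1 to 4, 4 rose (Hoxa4, Hoxb3, Hoxc4 and Hoxd3) and 2 fell (Hoxb1 and Hoxd1), with a median of 0.30 that was -0.72 after quantile normalization and -0.03 with the 75th percentile. After quantile normalization 0 of these 10 rose and 4 fell, with Hoxa4, Hoxb3, Hoxc4 and Hoxd3 at 0.83, 0.50, 0.91 and 0.90. On the deposited values 40% of paralogues 1 to 4 rose and 20% fell, against 31.8% and 15.4% of all genes tested. Of paralogues 5 to 8, 5 of 8 rose (Hoxa5, Hoxc5, Hoxc6, Hoxc8 and Hoxd8), Hoxd8 by 2.17, but after quantile normalization 1 rose and 1 fell. Of paralogues 9 to 13, 6 of 11 rose, Hoxd10 by 2.66, and after quantile normalization 3 rose and 1 fell. Cdx1, which activates posterior Hox genes and later marks intestine, had 59.4 and 86.4 at E18.5, against 1153, 924 and 1119.6 at E7.5 (change -3.47 ± 0.25).

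Extraembryonic genes fell too. Of 33 tested genes of visceral and yolk sac endoderm 21 fell and 3 rose (Afp, Apoa4 and Fgb), with a median of -1.78. Rhox5, an X-linked homeobox gene, had signals of 54.2 and 63.7 on the E18.5 arrays, against 19957, 17357 and 17898 on the E7.5 arrays, a change of -7.76 ± 0.18 (adjusted p = 7.3e-18), and Trap1a, an X-linked tumour antigen gene of visceral endoderm, had signals of 24.8 and 1.68 on the E18.5 arrays, against 4225, 5918 and 5872 on the E7.5 arrays, a change of -7.15 ± 0.38. Slc13a4, a sulphate transporter, had 71.7 and 31.1 at E18.5, against 6501, 4575 and 5213 at E7.5 (change -6.18 ± 0.43), Car4, a membrane-bound carbonic anhydrase, had 272 and 281 at E18.5, against 13653, 12996 and 15627 at E7.5 (change -5.54 ± 0.13), and Emb, a partner of lactate transporters, had 533 and 839.9 at E18.5, against 34703, 27469.9 and 30743 at E7.5 (change -5.47 ± 0.15). Another of the 3 probe sets of Emb had a change of -0.16. Cldn6, a claudin of early epithelia and epiblast, had 92.8 and 105 at E18.5, against 5116, 5181 and 5285 at E7.5 (change -5.39 ± 0.14). The arrays of the stages did not overlap in any of these genes, but this was a condition for naming them and held for 83.6% of all genes tested. Parietal endoderm genes rose in 8 of 16 cases and fell in 2 (Lama1 and Snai1); Lama1, a laminin chain of the earliest basement membranes, had 107 and 145 at E18.5, against 637, 529.7 and 681 at E7.5 and fell by 2.09. After quantile normalization 9 rose and 4 fell. Trophoblast genes fell in 13 of 18 cases, with a median of -2.8. Phlda2, imprinted and a brake on the growth of the placenta, had signals of 87.2 and 135 on the E18.5 arrays, against 25814, 22525 and 22685 on the E7.5 arrays, a change of -7.45 ± 0.16 (adjusted p = 1.3e-18), and it had dropped to a mean of 676 at E9.5. Plac1, an X-linked trophoblast gene, had 175 and 155 at E18.5, against 2525, 7673 and 4338 at E7.5 (change -4.53 ± 0.27). Prl4a1, a prolactin-family hormone of trophoblast, had 5.64 and 6.55 at E18.5, against 314, 6943 and 589.7 at E7.5; E7.5 replicate 2 stood far above the others, and the change of -5.15 ± 0.82 was -3.84 without it and -6.02 without E7.5 replicate 1. The Phlda2 promoter, shown as a contrast to those of the skin because it is rich in CpG and still holds a TATAAA in capitals, lies at chr7:143502505-143502724 on the minus strand.
Phlda2: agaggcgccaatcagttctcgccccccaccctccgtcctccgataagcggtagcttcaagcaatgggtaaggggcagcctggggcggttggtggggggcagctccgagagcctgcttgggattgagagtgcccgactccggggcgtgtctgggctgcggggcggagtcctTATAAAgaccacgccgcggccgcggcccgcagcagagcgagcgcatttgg

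Tissue outside the embryo proper was checked through its markers. All 3 trophoblast markers with a single-symbol probe set were lower on every E18.5 array, with a summed signal of 467 to 471 at E18.5, against 5566 to 10119 at E7.5; Elf5 and Plac1 carried it, and Tpbpa, of the ectoplacental cone, was low at both stages (15.5 and 0.912 at E18.5, against 16.6, 101 and 32.1 at E7.5). The 4 visceral endoderm markers summed to 4203 to 4532 at E18.5, against 34153 to 38357 at E7.5, each lower on every E18.5 array. The 3 parietal endoderm markers went the other way in sum, 20755 to 21319 at E18.5, against 3740 to 5371 at E7.5: Lama1 was lower, while Sparc, also of bone and connective tissue, and Thbd, also of endothelium, were higher on every E18.5 array. Markers of adult blood, 3 of which had a single-symbol probe set, summed to 23135 to 26661 at E18.5, against 86.5 to 167 at E7.5, through S100a8 and Ngp of neutrophils. Hbb-b1 had no such probe set. That of Hba-a1 was at or below 44.4 on all 5 arrays and did not pass the filter for testing. The level of adult globin RNA therefore cannot be read from these markers. Of 4 maternal decidua markers, Prl8a2 had 23.8 and 25.6 at E18.5, against 648, 1263 and 958 at E7.5, while Gzmd and Gzme, granzymes of decidual killer cells, were at or below 39.0 on all 5 arrays and Igfbp1, also a liver product, had 12737 and 14059 at E18.5, against 899.6, 482 and 592 at E7.5. The wider decidua list had 9 rises and 2 falls (Hsd11b2 and Prl8a2) in 17. Of 7 markers of the embryo itself, Pou5f1 and Mixl1 were higher on every E7.5 array, and Alb, Acta1, Krt10, Sftpc and Snap25 were higher on every E18.5 array. The part that extraembryonic or maternal tissue on the E7.5 arrays has in these falls was not tested.

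The X chromosome held 17 of the 93 large falls (18.3%), against 3.13% of the large rises and 3.38% of all genes tested. Among these 17 were Rhox5, Rhox6 and Rhox9, the sole run of 3 neighbouring tested genes that were all large falls, together with Trap1a, Plac1, Dusp9, Nr0b1 and Eras. Rhox6 had 13.1 and 12.1 at E18.5, against 764, 1067 and 909 at E7.5 (change -4.60 ± 0.30). Mageb16, a member of the MAGE family of testis and tumour antigens, had signals of 36.3 and 26.6 on the E18.5 arrays, against 2202, 2178 and 2103 on the E7.5 arrays, a change of -5.26 ± 0.36. Of 14 tested genes of the germline and X-linked reproductive group 11 fell and 2 rose (Kit and Prdm1), with 11 and 0 after quantile normalization; Kit had a change of 1.13 that was 0.65 then and 0.75 with the 75th percentile, and Prdm1 had 1.02 and then 0.49. The promoter of Mageb16 is printed because it holds the octamer ATGCAAAT, the sequence that Oct4 and related POU factors bind, in capitals; it lies at chrX:79671416-79671635 on the minus strand.
Mageb16: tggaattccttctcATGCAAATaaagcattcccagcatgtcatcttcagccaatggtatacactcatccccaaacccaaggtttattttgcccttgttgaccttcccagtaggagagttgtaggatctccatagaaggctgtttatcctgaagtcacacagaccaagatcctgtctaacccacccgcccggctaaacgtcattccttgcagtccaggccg

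Genes of growth fell as a group. Of 40 genes of DNA replication and mitosis 36 fell, with a median of -1.92, although a single one, Mybl2, a transcription factor of dividing cells, fell by 8-fold or more. Mybl2 had signals of 177 and 134 on the E18.5 arrays, against 1482, 1738 and 1500.5 on the E7.5 arrays, a change of -3.15 ± 0.15 (adjusted p = 2.3e-13). The 4 genes without a call were Ccne2, Pola1, Mki67 and Tyms. The largest step was after E12.5 for 25 of the 40 and across the array sets for 13; for 23 of the 32 pluripotency and epiblast genes it was the step up to E10.5. Of 26 ribosome biogenesis genes 25 fell (median -2.22); Rrp9, which helps to process ribosomal RNA, had 143 and 168 at E18.5, against 1692, 1186 and 1104 at E7.5 (change -2.88 ± 0.22). Ribosomal proteins themselves showed 1 call in 18, Rpl27, at -1.20 ± 0.12, which was -0.72 and under 2-fold after quantile normalization; with the 75th percentile 11 of the 18 were lower by 2-fold or more. For 17 of the 18 the largest step was the one across the array sets. DNA methylation genes fell in 9 of 12 cases and rose in 2 (Mbd2 and Tet2), with Tet2, which oxidises methylcytosine, at 2.69 ± 0.23. Polycomb and chromatin genes fell in 12 of 23 cases and rose in 1, Smarca2, an ATPase of the SWI/SNF complex (2.23 ± 0.18). Glycolysis and hypoxia genes were divided, with 6 of 23 rising (26.1%) and 9 falling (39.1%), against 31.8% and 15.4% of all genes tested. Their median of -0.32 was 0.1 after quantile normalization. Slc2a1, the glucose transporter, had 2776 and 2693 at E18.5, against 20918, 18846 and 21569.8 at E7.5 (change -2.89 ± 0.11), and Aldoc, an aldolase of brain, rose by 2.39. The other probe set of Aldoc had a change of 0.05. Of 30 oxidative phosphorylation genes 0 reached 2-fold in limma's test, while 18 had an unadjusted p under 0.05 and 24 had arrays that did not overlap between the stages, against 83.6% of all genes; their median was 0.14, 0.58 after quantile normalization and -0.26 with the 75th percentile. Among 13 commonly used reference genes 1 rose (B2m) and 2 fell (Pgk1 and Tbp): B2m, part of MHC class I, rose by 2.90 and Pgk1, a glycolytic enzyme, had a change of -1.20, or -0.80 after quantile normalization.

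A separate class of genes, called high at both ends here, fell inside the earlier array set and rose inside the later one. It was defined by 2 comparisons that stay inside an array set and share no array: a fall of 2-fold or more at E10.5 against E7.5 (989 genes, 7.04% of those tested) and a rise of 2-fold or more at E18.5 against E12.5 (2017 genes, 14.4%), both under both scalings. The 374 genes that met both were 2.66% of those tested. Their median change between the ends was 0.28, with 112 higher at E18.5, 58 lower and 204 without a call. Over all genes tested the median was 0.27, with 31.8% higher, 15.4% lower and 47.2% called either way. The counts between the ends were thus near those shares and are not a mark of the class. The lowest stage mean was at E10.5 or E12.5 for 237 of the 374. The rule compares no end with stages of the other array set, so the name of the class does not hold for every member. Klf4 had a mean of 397 at E7.5 but 984 at E12.5, and Cdx1 had 72.9 at E18.5, against 1066 at E7.5.

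**Figure D5:**
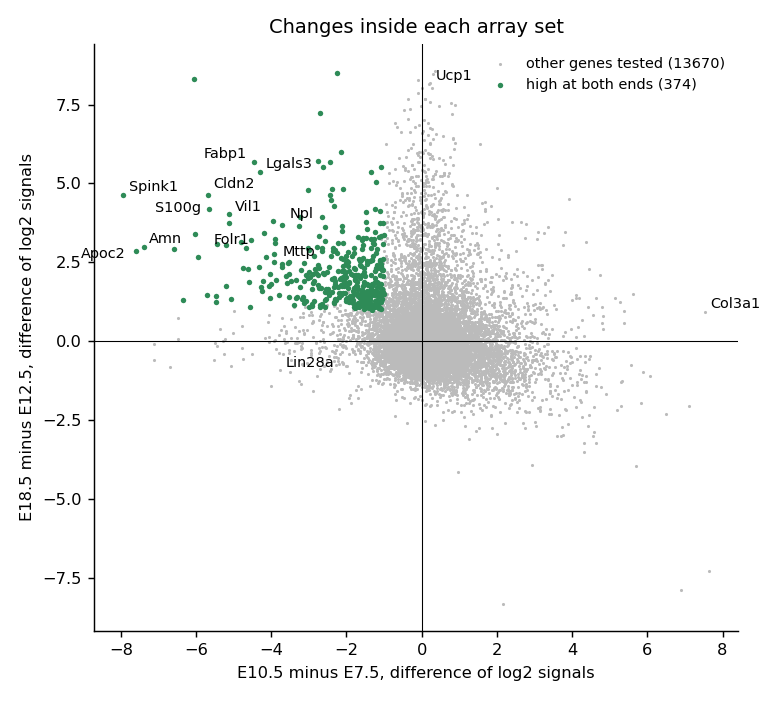
Change inside the later array set (E18.5 minus E12.5, vertical) against the change inside the earlier array set (E10.5 minus E7.5, horizontal) for 14044 genes, as differences of log2(signal + 25.9). The 374 genes high at both ends (green) fill the upper left; Spink1 and Cldn2 have large legs both ways, whereas Ucp1 changed by 8.18 in the later set and 0.22 in the earlier, and Col3a1 by 0.94 and 7.53.

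The named genes of this class are those with the largest smaller leg, so they are not a sample of it. As background, visceral endoderm shares an apical brush border with the later intestine and kidney. With the later intestine and liver it shares the machinery that packs lipid into lipoproteins. Spink1, a trypsin inhibitor, had signals of 2895 and 3338 on the E18.5 arrays, against 13085, 14969.6 and 17663 on the E7.5 arrays, and its stage means between were 37.5 at E10.5 and 104 at E12.5. Its 2 legs were -7.94 and 4.63. Fabp1, the fatty acid carrier of liver and intestine, had signals of 17097 and 19887 on the E18.5 arrays, against 680.2, 851 and 542 on the E7.5 arrays, with 7.34 at E10.5 and legs of -4.45 and 5.68; between the ends it rose by 4.71 ± 0.31. Cldn2, a claudin of leaky epithelia, had signals of 829.7 and 782 on the E18.5 arrays, against 2988, 2059 and 2314 on the E7.5 arrays, with 7.90 at E12.5. Vil1, villin, which bundles actin in microvilli, had signals of 579 and 541 on the E18.5 arrays, against 1292, 1122 and 1191 on the E7.5 arrays, with 10.4 at E12.5. S100g, the calcium carrier of absorptive cells, had 427 and 543 at E18.5, against 1073, 1732 and 1567 at E7.5, with 1.76 at E12.5. In these 5 genes the means at E10.5 and E12.5 lay below both ends.

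For several of them the test did not separate the ends. Npl, which degrades sialic acid, had signals of 5354 and 5567 on the E18.5 arrays, against 5331, 4495 and 6036 on the E7.5 arrays; the arrays of the stages overlapped, the change was 0.06 ± 0.15 (adjusted p = 0.74), and the mean was 379.7 at E10.5. Dram1, a lysosomal membrane protein of autophagy, had 909 and 977 at E18.5, against 773, 841 and 827 at E7.5 (change 0.21 ± 0.36, adjusted p = 0.61), with 27.9 at E9.5. Mttp, which loads lipid onto apolipoprotein B, had 2137 and 2502 at E18.5, against 2565, 2748 and 2898 at E7.5 (change -0.24 ± 0.15, adjusted p = 0.17), with 137 at E9.5. Cdhr2, a protocadherin that links microvilli, had 451 and 477 at E18.5, against 375, 301 and 315 at E7.5 (change 0.46 ± 0.48, adjusted p = 0.39), with 6.43 at E12.5. A p that misses the threshold does not show that the ends were equal. Lgals3, a galectin of epithelia and macrophages, had 5904 and 6291 at E18.5, against 481, 2233 and 1111 at E7.5 and rose by 2.49 ± 0.42. Lower at E18.5 but still well above the middle were Folr1, the folate receptor, with 1059 and 1240.5 at E18.5, against 3321, 3220.0 and 3586 at E7.5 and 83.8 at E12.5, and Pdzk1, a scaffold of brush border transporters, with 654 and 619 at E18.5, against 2168, 1975 and 1816 at E7.5 and 21.4 at E10.5. Aqp8, a water channel, Slc7a9, an amino acid transporter, and Dpp4, a brush border peptidase, had changes of -0.51, -0.85 and -0.87. All were under 2-fold and so were not called, although limma's adjusted p was 0.028 for Aqp8 and 0.030 for Dpp4. The 4 probe sets of Dpp4 did not all have the same sign.

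Counted on the lists, the genes high at both ends made up 12 of 15 simple epithelium genes (80%: Cdh1, Cldn3, Cldn7, Epcam, Esrp1, Krt8, Krt18, Krt19, Ocln, Rab25, Spint1 and Spint2), 12 of 16 apolipoproteins and lipid carriers (75%, among them Apob, Apoe and Mttp), 17 of 33 visceral endoderm genes (51.5%), 8 of 26 intestinal genes (30.8%), 2 of 16 kidney genes, 8 of 32 liver plasma proteins (25%) and 5 of 25 adipocyte genes (20%), against 2.66% of all genes tested. The counts were 0 of 26 skeletal contractile, 0 of 35 connective tissue, 0 of 24 neuron cytoskeleton and 0 of 40 replication genes. With a share of 2.66% over all genes, a count of 0 in lists of this size is near that share and is not a result about them. The rule also needs a fall from E7.5, which genes of the lowest signals there, such as Myh8 with a mean of 11.3, could not have. A gene can stand on several lists. Between the ends, apolipoproteins and lipid carriers rose in 10 of 16 cases and fell in 2 (Apoc2 and Apom). Fabp2, the intestinal fatty acid carrier, had signals of 11374 and 13060.1 on the E18.5 arrays, against 257, 202 and 229 on the E7.5 arrays, with 8.86 at E9.5 and a change of 5.59 ± 0.25 between the ends. Apom, a carrier of sphingosine phosphate, had 1864 and 2327 at E18.5, against 11218, 8255 and 9072 at E7.5 and fell by 2.17. Apoc4 and Apoa2, made in liver, rose by 5.09 and 3.30. Simple epithelium genes rose in 1 of 15 cases (Rab25) and fell in 5 (Cldn6, Cldn7, Krt8, Krt18 and Spint1). Rab25, a small GTPase of epithelial recycling, had 1181 and 1241 at E18.5, against 397, 412 and 354 at E7.5 with 17.9 at E12.5. Car4 was among the 15 largest falls between the ends and also in this class, with legs of -6.36 and 1.30.

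The promoters of Fabp1 and Cdhr2 are printed as examples of genes high at both ends. That of Fabp1, at chr6:71199679-71199898 on the plus strand, has TATAAA in capitals. That of Cdhr2, at chr13:54701263-54701482 on the plus strand, has in capitals a match to GTTAATNAT, most of the sequence bound by HNF1 factors of liver, kidney, gut and visceral endoderm.
Fabp1: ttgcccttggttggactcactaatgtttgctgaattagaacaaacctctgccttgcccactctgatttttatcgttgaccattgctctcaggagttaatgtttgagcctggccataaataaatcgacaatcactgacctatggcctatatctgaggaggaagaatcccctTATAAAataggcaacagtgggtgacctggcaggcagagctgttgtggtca
Cdhr2: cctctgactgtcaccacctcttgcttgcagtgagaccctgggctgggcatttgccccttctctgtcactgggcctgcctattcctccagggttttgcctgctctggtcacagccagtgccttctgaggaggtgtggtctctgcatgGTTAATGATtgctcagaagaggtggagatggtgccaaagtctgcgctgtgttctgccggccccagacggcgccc

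Promoter sequence was described for each class of genes. Promoters of 300 bases, 250 before and 50 after the start, were matched by gene ID for 637 of 833 large rises, 75 of 93 large falls, 305 of 374 genes high at both ends and 11267 of 14044 genes tested, and where a gene had several the earliest listed was used. TATAAA beginning 40 to 20 bases before the start, on the strand of the gene, was present in 10.7% of large rises, 2.67% of large falls and 2.95% of genes high at both ends, against 2.03% of all. The ratio of observed to calculated CpG had a median of 0.274 in large rises, 0.515 in large falls and 0.509 in genes high at both ends, against 0.74 in all, and was below 0.4 in 69.7%, 38.7% and 38.7%, against 19.6%. Over 300 bases, the promoter of Hrnr had a ratio of 0.058 and Phlda2 of 0.819. Other motifs were searched anywhere on both strands. GTTAATNAT was found in 2.20% of large rises, in 1.33% of large falls (1 gene) and in 2.95% of genes high at both ends, against 0.524% of all; CAAAGTCCA, bound by HNF4, in 1.26%, 0% and 1.31%, against 0.462%. ATGCAAAT was in 1.41% of large rises, 5.33% of large falls (4 genes) and 3.61% of genes high at both ends, against 1.42% of all. CTAAAAATA, most of the MEF2 site of muscle genes, was in 0.628% of large rises, 0% of large falls and 0.656% of genes high at both ends, against 0.284% of all. A match describes letters in this window and does not show binding, and a window without a match says nothing of the factor. Of the 11267 promoters 1 had overlapping matches.

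Neighbouring genes rose together beyond the skin. The large rises formed 31 runs of 3 or more tested genes that follow each other in the genome, with 113 genes in all. On chromosome 12 these were 5 genes from Serpina1b to Serpina3n, liver protease inhibitors, on chromosome 10 the proteoglycans and matrix genes Dcn, Lum, Kera and Epyc, on chromosome 13 their relatives Aspn, Omd and Ogn, on chromosome 4 C1qb, C1qc and C1qa, on chromosome 1 the lens crystallins Crygd, Crygb and Cryga, and on chromosome 11 the myosin heavy chains Myh3, Myh2 and Myh1. Families of similar sequence such as Serpina1, Cryg and Myh may share signal between probe sets. Other runs joined genes of different families, such as Asb5, Gpm6a and Hpgd on chromosome 8 and Nrn1, F13a1 and Ly86 on chromosome 13. How many runs other sets of tested genes would form was not counted.

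The 121 large rises and 33 large falls from which the named genes come had SEs of 0.12 to 0.45 and 0.1 to 0.82, and adjusted p-values of at most 2.3e-08 and 9.8e-06.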

How the data were processed

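Pooled total RNA of whole embryos without the amnion was, per the labels, labelled by the one-cycle method, with 1 array per sample. The deposited values are intensity: MAS5 signals computed by the authors, per the submitters' processing notes, in a version not given in the sources used here. On all 20 arrays the mean without the lowest and highest 2% of values was 500.0, a shared trimmed mean set by the authors' scaling. No detection calls were used. There is no count depth; precision is limited by 2 and 3 arrays at the ends.

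Of 45101 probe sets, 64 of them controls, the 34945 with a single gene symbol were kept (932 had several, 9211 none; 34754 matched RefSeq by gene ID). The probe set with the highest mean log2 signal stood for each of 18193 genes, and 14044 genes above the array median on at least 2 arrays were tested. Signals were taken as log2(signal + 25.9), where 25.9 is the median of the arrays' 25th percentiles, and fitted with limma 3.58.1 in R 4.3.3 (lmFit and eBayes with trend, a mean for each of 8 stages, 12 residual degrees of freedom). Two-sided p-values were adjusted by Benjamini-Hochberg over all genes tested, and a call needed an adjusted p under 0.05 and 2-fold or more. Large changes also held after quantile normalization. No 2 arrays held identical values. The design text calls the arrays of a stage biological replications without saying how the pools were made, and the spread behind each p-value is that between pools. On simulated data for this comparison with 14044 genes, 100% of changes of 4 and 86% of changes of 1.5 on the log2 scale were called, and 6 of 13844 unchanged genes. The simulated arrays had normal noise and no shift between the array sets. They therefore give no rate of false calls for a comparison that crosses the sets.

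The members, the 57 gene lists and the rules were chosen with earlier results of these data known. Genes were named by rule: the 15 largest changes each way among large changes measured without a probe set marked for cross-hybridisation and without overlap between the stages, up to 4 each way per list, or the largest called member each way, and the 15 genes high at both ends with the largest smaller leg. Genes making up a count of 5 or fewer, runs of neighbours, X-linked genes and genes listed in a class are named beyond it, after their values were seen. Alternatives covered scaling, the number added to signals, filters, probe set choice, the arrays fitted and each replicate left out.

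The replicate number in the titles was checked as a pairing: deviations of same-numbered arrays of E18.5 and E7.5 from their stage means had correlations of 0 and -0.01, so the arrays share only a number.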

Additional observations from a re-analysis of the deposited data

How the results depend on the processing

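Against 4463 rises, 2159 falls, 833 large rises, 93 large falls and 374 genes high at both ends, quantile normalization gave 144 large falls, scaling to the 75th percentile 3386 falls, and a number added to signals 4 times larger 497 large rises, 54 large falls and 226 genes high at both ends. A filter at the 75th percentile left 2346 rises, and dropping the minimum fold gave 4363 falls. Asking for 4-fold instead of 8-fold gave 1615 large rises and 393 large falls, asking for 16-fold 478 and 44, and asking for 4-fold on each leg 87 genes high at both ends. Stricter thresholds lower these counts by construction; the cause of the other differences was not tested. Without the requirement after quantile normalization, an alternative chosen after seeing the data, there were 1195 large rises and 93 large falls. Leaving out 1 array at a time gave 4140 to 4466 rises, 2113 to 2183 falls, 776 to 844 large rises, 92 to 97 large falls and 346 to 393 genes high at both ends. Over all alternatives together, 3152 values of named genes kept their direction and side of the threshold, 22 kept only the direction, and 1 reversed: Atp2a2 was at 0.62 with the mean of all probe sets, against -1.51 with its brightest. Most named genes were picked for large changes, so this count does not stand for other genes. Medians of gene lists were judged against their spread between arrays of a stage. By that measure 588 values stayed within the spread and 324 moved beyond it. Kit fell short of 2-fold under 4 alternatives (both other scalings, the larger number added and the mean of all probe sets), Gata1 and Ihh with several arrays left out. The replicate number as a block gave 4494 rises, 2171 falls, 833 large rises, 94 large falls and 376 genes high at both ends, and Gata1 (-0.93) and Ihh (-0.98) then missed 2-fold; no other named call changed. The numbers do not pair the samples (correlations of 0 and -0.01). The fit of E18.5 and E7.5 arrays alone gives no value for the pattern at both ends. Genes near the lowest signals have changes that depend on the number added to them, and detection calls were not used here.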
